A study of Homo sapiens with 9 samples.

Results

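The genes described here encode 45 proteins that build the small (40S) ribosomal subunit: the subcomplexes of the small-subunit processome, the core proteins of the box C/D particle that holds the U3 small nucleolar RNA, and the factors that finish the pre-40S particle. They were taken by symbol from the 17637 genes of the count table, in which all 45 were present. Messenger RNA had been measured in KOPTK1, a long-established line of human T-cell acute lymphoblastic leukaemia, in 3 groups of 3 libraries. The shControl cells carried a control hairpin, named for GFP in the table's columns. The shDHX15 cells carried a lentiviral hairpin against the RNA helicase DHX15, and the shDHX15_MYC cells carried a hairpin of the same number together with the coding region of MYC. The question behind the design was whether MYC acts downstream of DHX15.

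In human cells the RNA of the small subunit is cut out of a long nucleolar transcript. The processome assembles on that transcript as it is made: UTP-A binds its leading spacer first, UTP-B and the U3 particle follow, and the U3 RNA pairs with the precursor to guide the early cuts. Helicases, a GTPase and methyltransferases then remodel and modify the particle, and the pre-40S factors accompany it to the cytoplasm, where the last cut forms the mature 18S end. MYC is a transcription factor well known for raising ribosome assembly genes, and it binds the E-box, the hexamer CACGTG. The yeast counterpart of DHX15 acts both in splicing and in ribosome assembly.

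The libraries held 42134302 to 59688062 counts, and every member passed the filter on low counts. DHX15 was at 284, 278 and 278 CPM (read counts scaled to a common library total with TMM factors) in shControl, 182, 162 and 156 after knockdown and 197, 196 and 192 with added MYC. MYC was at 109.95, 109 and 109, 85.3, 91.3 and 84.3 and 6922, 7174 and 7197 CPM in the same order of groups, so the last lies far above shControl and is not a return to it. The set holds no library with added MYC and a control hairpin. With 1 hairpin number, loss of DHX15 and other effects of the hairpin cannot be told apart. All 12 T-lineage markers were over 1 CPM in shControl and after knockdown, and 11 of 12 with added MYC, where PTCRA was at 0.184 CPM. Their summed level was 3439 to 3539, 2730 to 2845 and 1707 to 1739 CPM, and 10 markers of other lineages, mostly CD79A, summed to 43.8 to 44.8, 40.4 to 42.1 and 109 to 114 CPM. Mitochondrially encoded genes took 3.93%, 3.77% and 6.64% of counts. These values moved with the groups, and their part in the results below was not tested. One library, shDHX15 replicate 1, stood apart from the others of its group (chi-square per degree of freedom 17.3 and 16.4, against 4.36 between the other 2). Nothing in the labels tells whether the replicates came from separate cultures, so p-values measure the spread between these libraries, and in bulk RNA fewer cells of a kind and less RNA per cell cannot be told apart.

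The 45 genes together made up 0.237% of all counts in shControl, 0.228% after knockdown and 0.534% with added MYC. On the scaled counts their sum was 2558 ± 2.86, 2356 ± 28.1 and 4800 ± 34.9 CPM (SD, n = 3). The sums of the 3 groups did not overlap. Sums are led by abundant genes, so each gene's own change is given next.

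**Figure D1:**
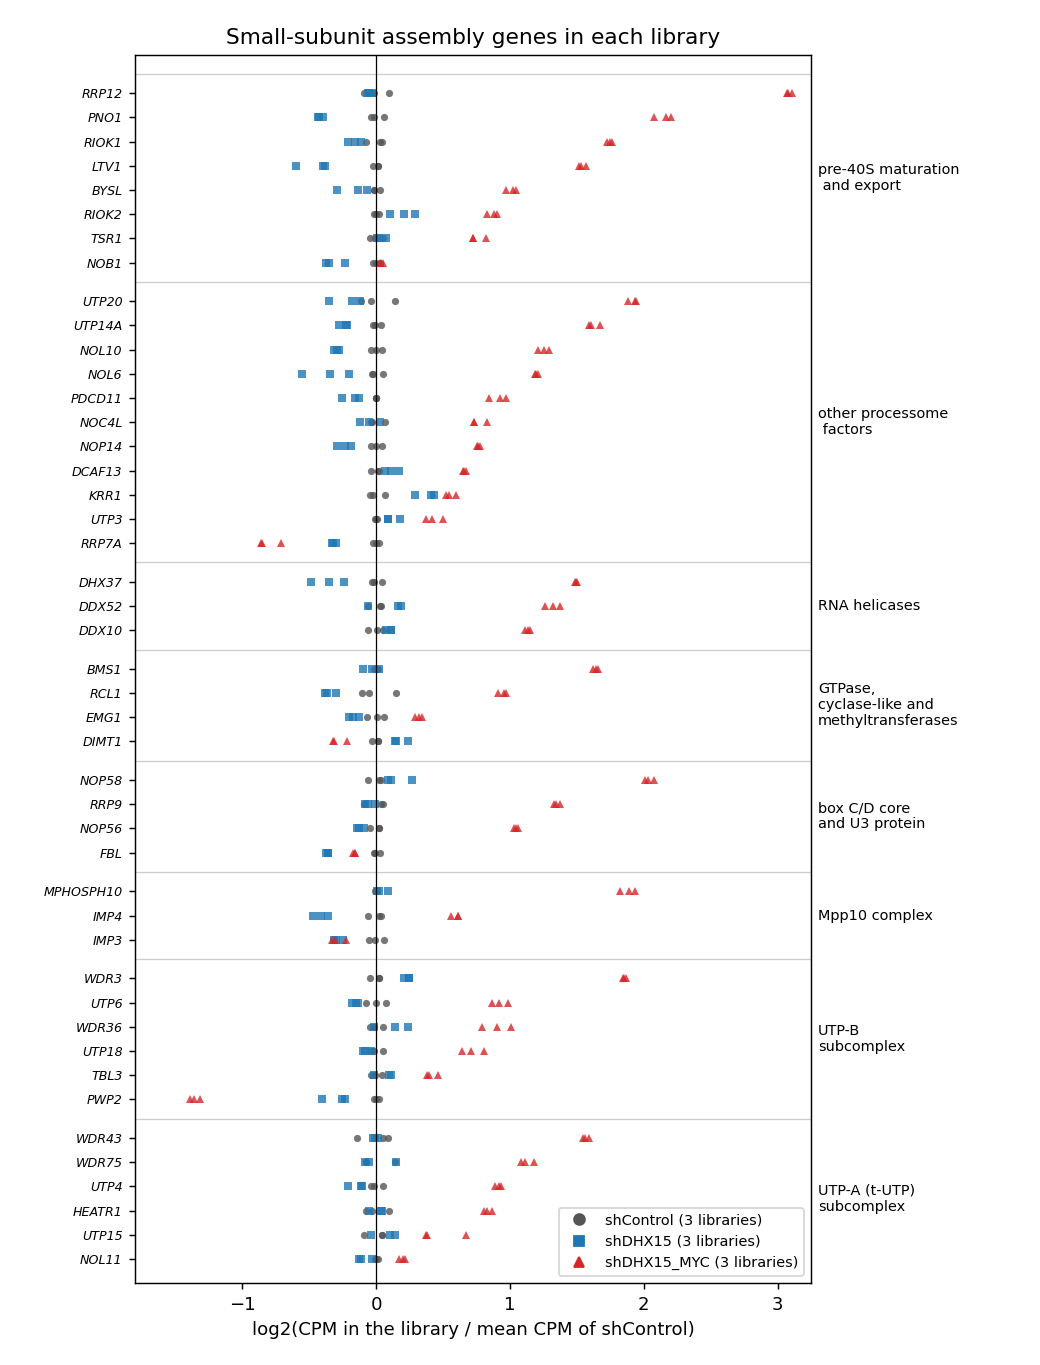
Level of each of the 45 genes (rows, by role) in each of the 9 libraries, as log2 of the ratio of its CPM to the gene's shControl mean (horizontal axis); circles are shControl, squares shDHX15 and triangles shDHX15_MYC. Squares lie close to 0, and most triangles lie to the right of both other groups, whereas those of PWP2, RRP7A, DIMT1, IMP3 and FBL lie left of 0.

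Knockdown of DHX15 moved many of these genes by small amounts, more often down. Against shControl 23 of 45 were lower, 7 higher and 15 not called at an adjusted p under 0.05. Of all 15309 genes tested 23.0% were called lower and 22.0% higher. The fitted log2 fold changes ran from -0.45 to 0.38 with a median of -0.09 (all genes 0.00), and 0 of 45 reached 1.5-fold, a size at which 2.83% of all genes were called higher and 4.42% lower. In 23 genes every shDHX15 library lay below every shControl library and in 9 every one lay above, where 26.6% and 24.4% of all genes did. The call split depends on scaling: with total counts in place of TMM, which moves the median of all genes by 0.07, 12 were higher and 15 lower (29.9% and 16.8% of all genes). Without shDHX15 replicate 1 it was 5 higher and 23 lower, and without shControl replicate 2 it was 4 higher and 20 lower. With the libraries of the 2 groups fitted alone it was 7 higher and 17 lower (23.7% and 20.1% of all genes).

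With added MYC nearly the whole set was higher. Against shDHX15, 41 of 45 genes were higher, 3 lower and 1 not called, while 42.1% of all genes were called higher and 42.6% lower. The median log2 fold change was 1.05 (all genes 0.01), the range -1.06 to 3.13, and 25 genes rose at least 2-fold, as did 21.7% of all genes. Total-count scaling moves the median of all genes by 0.20 here and gave 42 higher and 3 lower (50.2% and 34.9% of all genes). Against shControl 39 were higher, 5 lower and 1 not called, with 42.0% and 42.5% of all genes called higher and lower. The median there was 0.91, and 20 genes rose at least 2-fold against 21.3% of all genes. Total-count scaling moves that median of all genes by 0.27 and gave 41 higher and 2 lower (53.1% and 32.0% of all genes). The comparisons share libraries, so their values stand side by side below and were not correlated with each other.

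**Figure D2:**
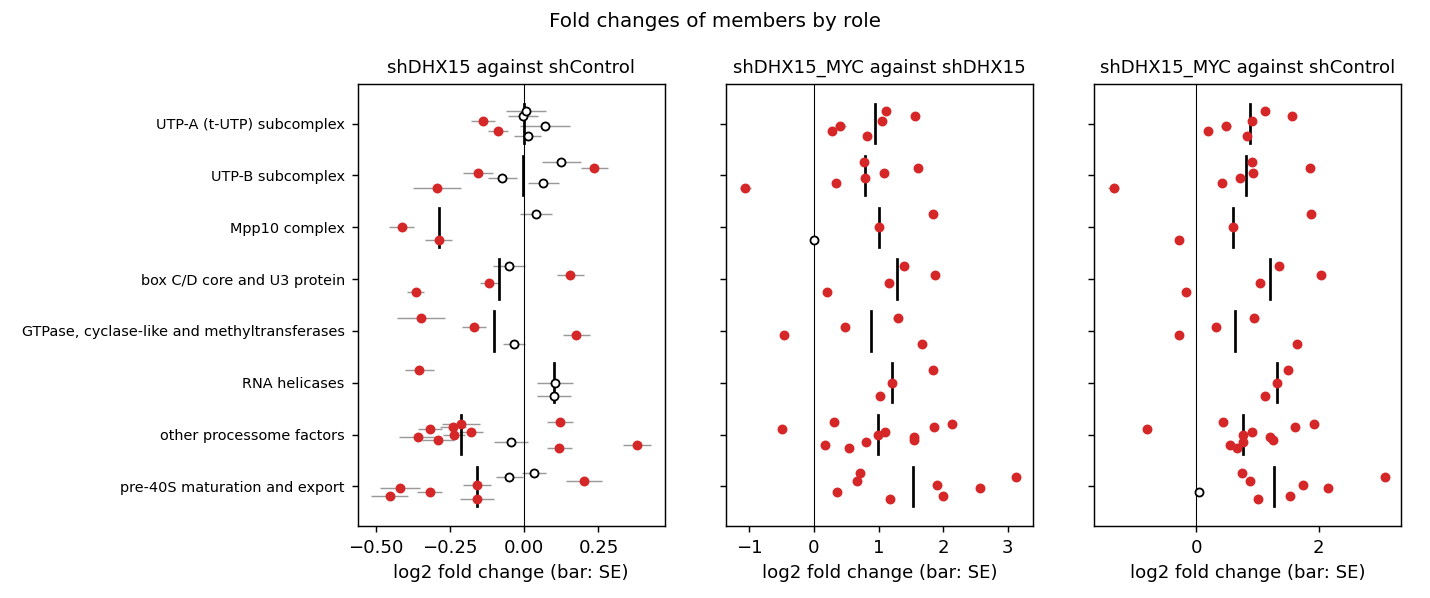
Fitted log2 fold change of each of the 45 genes (points, with the SE as a horizontal bar) by role (rows) in the 3 comparisons (panels); red points passed an adjusted p of 0.05, white points did not, and vertical bars are role medians. With knockdown each role has genes on both sides of 0, and with MYC over shDHX15 the pre-40S factors have the highest median (1.54).

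The UTP-A proteins, which bind the leading spacer and are also needed for full transcription of ribosomal DNA, changed little with knockdown, and all 6 rose with MYC. Of 6, the knockdown left 4 uncalled and 2 lower, UTP4 (-0.14) and NOL11 (-0.09, adjusted p = 0.0480). Of all genes 23.0% were called lower. The NOL11 call was lost in 13 alternatives, and that of UTP4 without shControl replicate 1 or shDHX15 replicate 3, with total counts and with the 2 groups alone. HEATR1, a long HEAT-repeat protein of this group, was at 90.4, 87.5 and 98.7 CPM in shControl, 95.2, 94.6 and 88.9 after knockdown and 164, 161 and 168 with added MYC. Its shControl and shDHX15 libraries overlapped (0.01, adjusted p = 0.869), and every shDHX15_MYC library was higher than both (0.82 against shDHX15, SE 0.0433, adjusted p = 6.10e-12). All 6 rose with MYC over shDHX15, by 0.28 for NOL11 to 1.57 for WDR43, and 3 of them at least 2-fold (UTP4, WDR43 and WDR75). Of all genes 42.1% were called higher there, and 21.7% at least 2-fold. WDR43 and WDR75, beta-propeller proteins, went from 44.04 ± 0.627 to 130.9 ± 1.86 CPM and from 37.9 ± 3.32 to 82.3 ± 2.79 CPM (SD, n = 3).

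UTP-B is a complex mostly of beta-propeller proteins that bridges the spacer and the U3 particle. With knockdown 1 of its 6 genes was called higher and 2 lower (22.0% and 23.0% of all genes). With MYC over shDHX15 5 rose and 1 fell (42.1% and 42.6% of all genes). The gene that fell with MYC is PWP2, whose counts are uncertain. WDR3 was at 22.03, 23.03 and 23.03 CPM in shControl, 26.9, 26.9 and 26.3 after knockdown and 81.6, 81.9 and 82.8 with added MYC. The 3 groups did not overlap, and WDR3 rose in each step, by 0.24 with knockdown (adjusted p = 4.79e-04) and by a further 1.62 with MYC (adjusted p = 5.96e-16). Its relative WDR36 was at 37.7, 38.6 and 40.4 CPM in shControl, 45.9, 42.8 and 38.5 after knockdown and 72.8, 78.4 and 67.3 with added MYC. Here the knockdown libraries overlapped those of shControl (0.13, adjusted p = 0.129, called higher at 0.19 without shDHX15 replicate 3 and with total counts), while all MYC libraries were above both (0.78). UTP6 fell with knockdown (-0.16, a call lost without shControl replicate 3, with total counts and with the 2 groups alone), TBL3 and UTP18 were not called (TBL3 was called higher with total counts, 0.13), and all 3 rose with MYC, UTP6 by 1.08, UTP18 by 0.79 and TBL3 by 0.35.

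PWP2, the sixth UTP-B gene, had the lowest fold change of the 45 in both comparisons with MYC, on counts that are uncertain. It was at 12.7, 13.03 and 12.8 CPM in shControl, 9.73, 10.8 and 10.96 after knockdown and 4.90, 5.18 and 5.01 with added MYC. Each group lay below the one before, with -0.29 for knockdown (adjusted p = 0.00644), -1.06 for MYC over shDHX15 (SE 0.0865, adjusted p = 2.95e-09) and -1.35 against shControl (adjusted p = 9.37e-11). PWP2 lies on chromosome 21, 44107290 to 44131181, plus strand (GRCh38), and 155 of its 189 transcript windows of 100 bases, a share of 0.820, also occur in a gene model at 5130871 to 5154734 of that chromosome, so its counts are uncertain. The 78 tested genes with a share of at least 0.8 had a median log2 fold change of 0.02 with knockdown, -2.21 with MYC over shDHX15 and -2.32 against shControl, and 66 of them were called lower in each of the last 2. The 277 tested genes with a share of 0.2 to under 0.8 had medians of 0.02, -0.61 and -0.63. Among the 13203 tested genes with no shared window the medians were 0.00, 0.04 and 0.05. Whether PWP2 fell because of its shared windows was not tested. Any difference in how the libraries with MYC were handled or counted cannot be told apart from added MYC. This holds for all comparisons with MYC. Without PWP2, 22 members were lower with knockdown.

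The Mpp10 complex joins MPHOSPH10 with IMP3 and IMP4, which help the U3 RNA pair with the precursor, and its 3 genes each followed a course of their own. MPHOSPH10 was at 18.1, 17.9 and 18.1 CPM in shControl, 19.2, 18.3 and 18.1 after knockdown and 63.6, 66.8 and 68.7 with added MYC. It was not called with knockdown (0.04) and rose in every MYC library (log2 fold change 1.84, SE 0.0507, adjusted p = 8.99e-16). IMP4 was at 60.3, 64.7 and 63.8 CPM in shControl, 45.3, 47.3 and 49.1 after knockdown and 92.98, 95.9 and 96.01 with added MYC. Its shDHX15 libraries were all lower (-0.41, adjusted p = 8.24e-07) and its MYC libraries all higher than shControl (0.59).

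IMP3 was at 59.99, 55.6 and 57.1 CPM in shControl, 46.3, 46.7 and 48.4 after knockdown and 46.5, 49.2 and 45.7 with added MYC. It fell with knockdown (-0.29, adjusted p = 7.28e-05), and the MYC libraries overlapped those of shDHX15 (0.00, adjusted p = 0.988). With total-count scaling, upper-quartile scaling or a stricter filter (genes from a mean log2 CPM of 3) it was called higher with MYC, by 0.20, 0.18 and 0.19, and its call below shControl (-0.29) was lost with total counts and the stricter filter. A share of 0.593 of IMP3's exon bases overlaps other genes on the opposite strand, SNX33 among them. Whether counting used strand is not given in the sources used here, so such reads cannot be told apart. The share was 0.299 for TBL3, 0.232 for HEATR1, 0.208 for TSR1 and 0.202 for NOB1, on either strand. The count ratio of MPHOSPH10 to IMP3, which no scaling changes, was 0.301 to 0.322 over the shControl libraries, 0.375 to 0.415 in shDHX15 and 1.36 to 1.504 in shDHX15_MYC.

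The box C/D particle places ribose methyl groups on ribosomal RNA, and with the U3 RNA it becomes part of the processome. FBL is its methyltransferase, NOP56 and NOP58 are the paired scaffold proteins, and RRP9 is specific to the U3 particle. FBL was at 263, 273 and 265 CPM in shControl, 206, 208 and 208 after knockdown and 236, 239 and 239 with added MYC. It fell with knockdown in every library (log2 fold change -0.37, SE 0.0286, adjusted p = 3.12e-08) and rose again in every library with MYC (0.20, adjusted p = 4.31e-06). Against shControl FBL was called lower (-0.16, adjusted p = 4.30e-05), but was called higher with total-count scaling (0.10, adjusted p = 0.00343) and not called with upper-quartile scaling (0.0024, adjusted p = 0.940) or the stricter filter (0.04, adjusted p = 0.164).

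The scaffold partners rose well past their control level. NOP58 was at 70.2, 65.6 and 69.6 CPM in shControl, 82.2, 73.7 and 72.8 after knockdown and 276, 279.6 and 288 with added MYC. It rose a little with knockdown (0.16, adjusted p = 0.00972, a call lost without shControl replicate 2 at 0.13) and strongly with MYC (log2 fold change 1.88, SE 0.0442, adjusted p = 1.15e-16). NOP56 was at 244, 244 and 233 CPM in shControl, 226, 218 and 220.3 after knockdown and 500.1, 490.3 and 496 with added MYC. Its knockdown libraries lay just below shControl (-0.12, adjusted p = 0.00378, not called with total counts), and its MYC libraries were far above both (1.16). RRP9 was at 22.7, 20.8 and 22.9 CPM in shControl, 20.9, 21.99 and 21.2 after knockdown and 56.3, 55.6 and 57.4 with added MYC. Knockdown and control overlapped for RRP9 (-0.05, adjusted p = 0.474), and with MYC it rose by 1.40.

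The balance of messages inside the particle can be followed in count ratios. The count ratio of NOP58 to FBL was 0.240 to 0.267 over the shControl libraries, 0.350 to 0.400 in shDHX15 and 1.17 to 1.20 in shDHX15_MYC. That of NOP56 to FBL was 0.880 to 0.925, 1.05 to 1.10 and 2.05 to 2.12. The ranges of the 3 groups did not overlap for either ratio, which depends on no library scaling. The pairs were chosen after the values had been seen and are given without a test: with 3 against 3 libraries an exact permutation test cannot go below 0.10. Per kilobase of exon, FBL had the highest level of the 45 in all 3 groups (123, 95.3 and 109.6 CPM per kb), while NOP58 went from rank 9 to 6 to 3. The highest level in the particle was 8.76 times the lowest in shControl and 3.07 times in shDHX15_MYC.

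**Figure D3:**
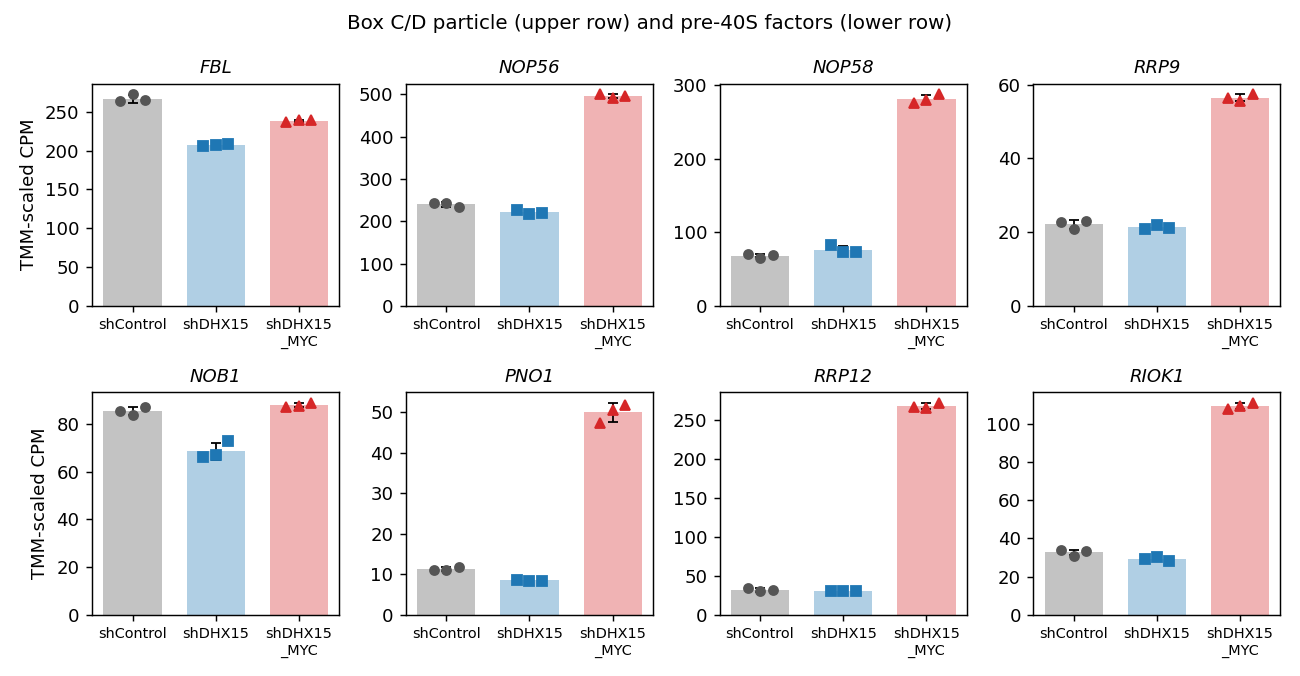
TMM-scaled CPM of 4 box C/D genes (upper row) and 4 pre-40S genes (lower row) by group; points are libraries, bars group means and error bars the SD of 3 libraries, each panel with its own axis from 0. FBL stays between 206 and 273 CPM and NOB1 between 66.2 and 89.01 CPM in all 9 libraries, while NOP56, NOP58, RRP9, PNO1, RRP12 and RIOK1 stand far higher in the 3 shDHX15_MYC libraries.

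Among the enzymes that act on the particle, BMS1 is a GTPase and RCL1 its cyclase-like partner, and EMG1 and DIMT1 methylate the small-subunit RNA. BMS1 was at 63.7, 62.7 and 64.3 CPM in shControl, 64.6, 62.1 and 59.4 after knockdown and 201, 195 and 198 with added MYC. Its knockdown libraries overlapped shControl (-0.03, adjusted p = 0.496), and with MYC every library was higher (log2 fold change 1.67, SE 0.0368, adjusted p = 5.14e-17). RCL1 fell with knockdown from 11.1 ± 1.03 to 8.73 ± 0.246 CPM (-0.35) and rose with MYC to 21.4 ± 0.461 CPM (1.29). EMG1 fell by 0.17 on the log2 scale with knockdown, a call lost with total counts, and rose by 0.49 with MYC, though a share of 0.531 of its exon bases overlaps LPCAT3 on the opposite strand or C1S on its own.

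DIMT1 ran the other way from most of the set in both steps. It was at 51.4, 51.4 and 49.9 CPM in shControl, 59.9, 56.5 and 55.9 after knockdown and 40.9, 43.8 and 40.8 with added MYC. The knockdown libraries were all above shControl (0.17, adjusted p = 0.00459) and the MYC libraries all below (-0.46 against shDHX15, adjusted p = 4.75e-08). Against shControl the change of -0.28 was not called with total counts (-0.02) or the stricter filter (-0.08).

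All 3 helicases rose at least 2-fold with MYC over shDHX15, as did 21.7% of all genes. DHX37, a DEAH-box relative of DHX15 that frees the U3 RNA from the precursor, was at 62.3, 63.1 and 65.6 CPM in shControl, 45.5, 49.9 and 54.02 after knockdown and 178, 180.3 and 179 with added MYC. It fell in every knockdown library (-0.35, adjusted p = 1.87e-05) and rose in every MYC library (1.85, adjusted p = 4.86e-16). The DEAD-box helicases DDX10 and DDX52 were both at 0.10 with knockdown and not called, and rose by 1.03 and 1.22 with MYC. Both were called higher with knockdown under total counts (0.17 each), DDX52 also without shDHX15 replicate 3 (0.18).

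Of the 11 other processome factors, 7 fell and 3 rose with knockdown (23.0% and 22.0% of all genes), and 10 rose and 1 fell with MYC over shDHX15 (42.1% and 42.6%). UTP20, a HEAT-repeat giant of the late processome, was at 31.2, 35.3 and 29.7 CPM in shControl, 29.5, 28.3 and 25.1 after knockdown and 122, 118 and 123 with added MYC. The knockdown libraries were all lower (log2 fold change -0.21, adjusted p = 0.0126), a call lost without shControl replicate 2, without shDHX15 replicate 3, with total counts and with the 2 groups alone. With MYC the rise of 2.13 (adjusted p = 1.70e-15) was the third highest in the set. NOL6, of the UTP-C group, was at 40.8, 42.8 and 40.6 CPM in shControl, 28.2, 35.9 and 32.7 after knockdown and 94.6, 94.2 and 95.99 with added MYC. Its knockdown libraries were spread but all lower (-0.36, adjusted p = 2.36e-04), and with MYC it rose by 1.55.

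RRP7A, the partner of NOL6 in UTP-C, fell in each step. It was at 139.8, 138 and 141 CPM in shControl, 113, 112 and 111 after knockdown and 76.9, 77.3 and 85.3 with added MYC. No groups overlapped, with -0.32 for knockdown (adjusted p = 5.07e-06), -0.49 for MYC over shDHX15 (adjusted p = 3.22e-09) and -0.81 against shControl. A share of 0.0722 of its windows also occurs in the pseudogene RRP7BP, far less than for PWP2. Tested genes with a share above 0 and under 0.2 had a median of -0.10 with MYC over shDHX15 (40.2% higher, 47.4% lower). A share of 0.159 of RRP7A's exon bases overlaps SERHL on the opposite strand. Whether either bears on the fall of RRP7A was not tested.

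The 3 genes of this role that rose with knockdown rose again with MYC. KRR1, a KH-domain protein of the early particle, was at 61.97, 58.3 and 57.1 CPM in shControl, 79.8, 78.6 and 72.3 after knockdown and 86.4, 89.3 and 85.05 with added MYC. The knockdown change (log2 fold change 0.38, SE 0.0458, adjusted p = 3.95e-06) was the highest of the 45 and the one with MYC (0.18) among the lowest. DCAF13, the human Sof1, was at 45.8, 45.6 and 43.9 CPM in shControl, 50.8, 47.2 and 48.8 after knockdown and 70.7, 71.1 and 71.7 with added MYC. Its libraries did not overlap either (0.12, adjusted p = 0.0327, then 0.54). UTP3, the human Sas10, rose by 0.12 and 0.31. The knockdown calls of DCAF13 and UTP3 were lost without shDHX15 replicate 1 (0.09 each), without any 1 of the shControl libraries, and with upper-quartile scaling, and that of DCAF13 also without shDHX15 replicate 3.

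The others of this role moved down and then up. UTP14A, which activates DHX37, fell by 0.24 on the log2 scale and rose by 1.86. NOL10 fell by 0.29 and rose by 1.54. PDCD11, the human Rrp5, which serves both subunits, fell by 0.18 and rose by 1.09. NOP14 fell by 0.24 and rose by 1.00. Its partner NOC4L was not called with knockdown (-0.05) and rose by 0.81.

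The pre-40S factors had the widest range of the roles with MYC over shDHX15 (0.36 to 3.13). RRP12, a HEAT-repeat protein of nuclear export, was at 33.9, 29.8 and 31.2 CPM in shControl, 30.2, 30.9 and 30.4 after knockdown and 267, 265 and 272 with added MYC. The knockdown and control libraries overlapped (-0.05, adjusted p = 0.386), and the rise with MYC (log2 fold change 3.13, SE 0.0430, adjusted p = 1.60e-19) was the highest of the 45. Per kilobase of exon RRP12 went from rank 37 in shControl to rank 11 in shDHX15_MYC.

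NOB1 is the endonuclease that makes the last cut, and PNO1 covers that site until the cut is due. PNO1 was at 10.96, 11.1 and 11.7 CPM in shControl, 8.57, 8.41 and 8.33 after knockdown and 47.4, 50.7 and 51.9 with added MYC. It fell in every knockdown library (-0.42, adjusted p = 7.59e-05) and rose in every MYC library (log2 fold change 2.57, SE 0.0621, adjusted p = 1.71e-16). NOB1 was at 85.5, 84.1 and 87.5 CPM in shControl, 66.2, 67.01 and 72.9 after knockdown and 87.3, 87.9 and 89.01 with added MYC. It too fell with knockdown (-0.32, adjusted p = 7.48e-06) but with MYC rose to levels that overlapped shControl (0.36 over shDHX15, 0.04 against shControl, adjusted p = 0.377). Against shControl NOB1 was called higher with total counts (0.30), upper-quartile scaling (0.21) and the stricter filter (0.24). The count ratio of PNO1 to NOB1 was 0.128 to 0.134 over the shControl libraries, 0.114 to 0.129 in shDHX15, which overlaps it, and 0.544 to 0.583 in shDHX15_MYC.

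LTV1 and the RIO kinases help release factors from the late particle. LTV1 was at 20.8, 20.8 and 20.3 CPM in shControl, 15.8, 15.7 and 13.7 after knockdown and 59.7, 58.9 and 61.3 with added MYC. It had the lowest knockdown change of the set (-0.45, adjusted p = 1.26e-05) and rose with MYC by 1.99, and a share of 0.348 of its exon bases overlaps other gene models on its strand. RIOK1 was at 33.7, 30.99 and 33.3 CPM in shControl, 29.3, 30.1 and 28.2 after knockdown and 108, 109.7 and 111 with added MYC. RIOK2 was at 18.6, 19.1 and 18.9 CPM in shControl, 21.8, 20.2 and 23.1 after knockdown and 33.5, 34.6 and 35.2 with added MYC. The kinases went opposite ways with knockdown: RIOK1 fell (-0.16, lost without shControl replicate 1, with total counts and with the 2 groups alone) and RIOK2 rose (0.20, lost without shDHX15 replicate 3 at 0.15). With MYC RIOK1 rose by 1.90 and RIOK2 by 0.67. BYSL, the human Enp1, fell by 0.16 with knockdown, a call lost without any 1 of the shControl libraries, without shDHX15 replicate 3, with total counts and with the 2 groups alone, and rose by 1.17. TSR1, a GTPase-like protein, was not called with knockdown (0.03, called higher with total counts at 0.10) and rose by 0.72.

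The start regions of these genes were examined for the E-box because MYC binds it. RefSeq (GRCh38.p14) gave a start for 39 of the 45 genes; NOP58, MPHOSPH10, RRP12, DDX52, NOL10 and DCAF13 were not matched. The window ran from 250 bases before the start to 50 after, and CACGTG reads the same on both strands. It was present in 16 of 39 genes (41.0%), in 12.2% of the 11421 tested genes with a start and in 8.77% of all 27305 genes. Among 35 further small-subunit assembly genes, described below, 29 had a start, and 9 of these (31.0%) held it. Most of the members' hexamers lay close to the start. Within 50 bases on either side 38.5% of members held one, against 24.1% of the further genes and 4.94% of tested genes. In the first 50 bases of the transcript it was 30.8%, against 10.3% and 1.40%. In the 250 bases before the start the share was 12.8%, against 17.2% and 10.9%. A match is a run of letters, not a measured site, and the narrower windows were added after the first result was seen.

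Shown next are 70 bases around the start of 6 genes that hold the hexamer, chosen over several roles, and of 2 that do not and that rose with knockdown. Each runs 5′ to 3′ on the gene's strand from 40 bases before the start, with CACGTG in capitals, in build GRCh38. UTP20 (chr12:101280065-101280134, plus strand) and UTP4 (chr16:69132609-69132678, plus strand) hold it just before the start, and in RRP9 (chr3:51941875-51941944, minus strand) it runs across the start. In PNO1 (chr2:68157848-68157917, plus strand), NOL6 (chr9:33473895-33473964, minus strand) and WDR43 (chr2:28894627-28894696, plus strand) it lies in the first bases of the transcript. DIMT1 (chr5:62403876-62403945, minus strand) and KRR1 (chr12:75511580-75511649, minus strand) have none in the window searched. The 6 with the hexamer all rose with MYC over shDHX15, while PWP2, which also holds it, fell and is not shown. Most members without it were not called higher with knockdown, unlike DIMT1 and KRR1.
UTP20: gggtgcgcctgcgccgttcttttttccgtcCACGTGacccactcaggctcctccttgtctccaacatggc
UTP4: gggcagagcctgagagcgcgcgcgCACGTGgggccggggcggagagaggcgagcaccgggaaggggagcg
RRP9: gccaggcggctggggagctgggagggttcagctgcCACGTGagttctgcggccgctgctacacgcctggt
PNO1: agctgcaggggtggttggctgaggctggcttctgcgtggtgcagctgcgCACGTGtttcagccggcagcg
NOL6: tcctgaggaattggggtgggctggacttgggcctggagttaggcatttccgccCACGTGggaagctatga
WDR43: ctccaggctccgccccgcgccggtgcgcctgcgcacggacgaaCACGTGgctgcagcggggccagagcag
DIMT1: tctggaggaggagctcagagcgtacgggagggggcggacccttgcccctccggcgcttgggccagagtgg
KRR1: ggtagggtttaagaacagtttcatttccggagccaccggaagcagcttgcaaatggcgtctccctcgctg

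Set beside the measured changes, the 16 members with the hexamer had a median of -0.27 with knockdown, with 13 lower and 0 higher, and the 23 without it a median of 0.01, with 9 lower and 5 higher. With MYC over shDHX15 the medians were 1.35 and 0.72, and against shControl 1.11 and 0.77. Over all tested genes with a start, those with the hexamer had medians of -0.04 with knockdown and 0.08 with MYC over shDHX15, and those without it 0.00 in both. With knockdown 401 of these 1391 genes with the hexamer were lower and 305 higher, and of the 10030 without it 2313 were lower and 2257 higher, a share higher near that of the 23 members. These splits depend on scaling. With total counts the lower calls of UTP4, UTP20 and BYSL, which hold the hexamer, were lost. Of the members without it, NOL11, UTP6, NOP56, EMG1 and RIOK1 also lost theirs, and TBL3, WDR36, DDX10 and TSR1 were called higher. This is a description of the members, with no test. With MYC over shDHX15, 15 of the 16 with the hexamer were higher and 1 lower, and of the 23 without it 20 were higher and 2 lower. Of all tested genes with a start, 645 of the 1391 with it were higher and 573 lower. Of the 10030 without it 4214 were higher and 4274 lower. Against shControl 14 of the 16 were higher and 2 lower, and of the 23 without it 19 were higher and 3 lower. Of all tested genes with a start, 631 of the 1391 with it were higher there and 570 lower. Of the 10030 without it 4213 were higher and 4238 lower. The hexamer did not go with a rise in every case: PWP2 holds it and fell in each comparison, on counts that are uncertain as given above. FBL also holds it and was called lower against shControl (-0.16), a call that depended on scaling. KRR1 and RIOK2 hold none and rose in each.

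**Figure D4:**
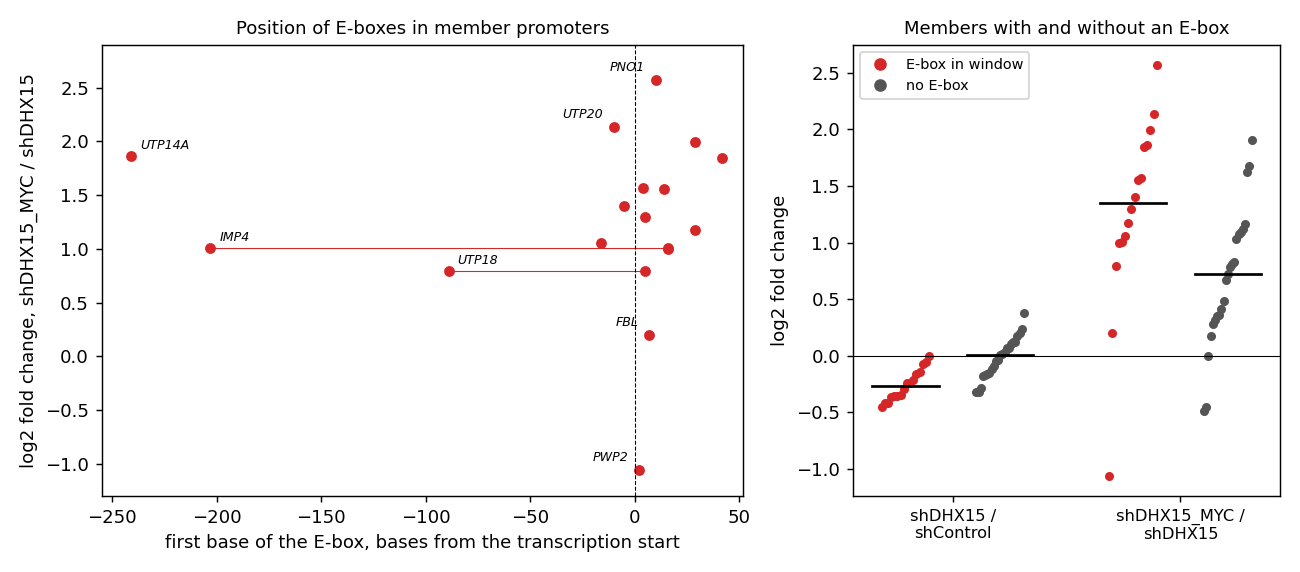
Left, distance of each CACGTG from the transcription start in bases (horizontal) against the gene's fitted log2 fold change of shDHX15_MYC over shDHX15 (vertical), a line joining hexamers of 1 gene. Right, fitted log2 fold changes of the 16 members with (red) and the 23 without (grey) the hexamer in 2 comparisons, with medians as black bars (-0.27 and 0.01 with knockdown, 1.35 and 0.72 with MYC); most hexamers lie near the start and the sets overlap widely.

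A list of 35 further small-subunit assembly genes, put together from textbook roles but with earlier results of these data known, gave the wider setting. With knockdown 12 were lower and 7 higher (median -0.03), where 23.0% and 22.0% of all genes were, so the share that rose is near that of all genes. The lowest were TRMT112, a methyltransferase activator (-0.47), DDX49 (-0.44) and SNU13, the first protein to bind box C/D RNA (-0.38). The 7 that rose were ESF1 (0.44), THUMPD1 (0.28), XPO1 (0.23), UTP23 (0.21), NOL7 (0.17), RIOK3 (0.17) and CSNK1D (0.09). With total-count scaling 11 were higher and 7 lower, near the 29.9% and 16.8% of all genes.

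With MYC over shDHX15, 27 of the 35 rose and 3 fell (median 0.72), against 42.1% and 42.6% of all genes. DNTTIP2 (2.26), UTP25 (2.204) and ESF1 (2.02), all nucleolar proteins of the early particle, rose most. XPO1, the exporter that carries pre-40S out of the nucleus (-0.33), ZNHIT3 of box C/D assembly (-0.31) and NOL7 (-0.22) fell. Against shControl 27 rose and 5 fell, where 42.0% and 42.5% of all genes did, with ESF1 (2.47), DNTTIP2 (2.32) and UTP25 (1.96) highest. The 5 that fell were TRMT112 (-0.47), ZNHIT3 (-0.44), SNU13 (-0.21), XPO1 (-0.10) and NOP9 (-0.09), where total-count scaling gave 2 lower (32.0% of all genes).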

How the data were processed

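Poly(A) RNA of 9 libraries was read from both ends for 150 bases, per the labels' protocols. The values are raw read counts per gene as the authors deposited them, in 1 table. FastQC 0.11.9, HISAT2 2.2.1, DESeq2 1.32.0 and hg38 are named in the submitters' processing notes; which counting program and annotation were used, and whether strand was, is not given in the sources used here. Columns named for GFP were taken as shControl, and those named for hairpin 1, without or with MYC, as shDHX15 and shDHX15_MYC, since the labels name no other target.

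Genes passing filterByExpr (15309) were fitted with edgeR 4.0.16 (R 4.3.3): TMM factors, 1 mean per group, all 9 libraries in 1 quasi-likelihood fit, 2-sided tests, and Benjamini-Hochberg adjustment over all genes tested. All adjusted p-values are from this fit, except those printed for FBL with another scaling or filter, which are from that fit. CPM are counts scaled by TMM library size, and n is 3 a group. Gene coordinates, exon lengths and shared 100-base windows came from GENCODE v29 (GRCh38), and start regions from RefSeq.

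The members, role lists and other small-subunit list were chosen with earlier results of these data known. Values per library are given for the 6 highest and 6 lowest members of each comparison, up to 6 called against the main direction, and FBL, NOP56, NOP58, RRP9, NOB1, PNO1, HEATR1, PWP2, MPHOSPH10 and BMS1. Count ratios of partner genes were chosen after the values were seen. Libraries of the same number did not deviate together (r from -0.0379 to 0.0451 over 9 pairs), so they were not paired. Alternatives were DESeq2 1.42.0, other scalings and filters, a replicate block, the 2 groups alone and each library left out.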

Additional observations from a re-analysis of the deposited data

How the results depend on the processing

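Calls with MYC added changed little with the processing, and those of the knockdown, being small, changed more. With total-count scaling the knockdown gave 12 members higher and 15 lower (main 7 and 23), and other small-subunit genes 11 higher and 7 lower (main 7 and 12). A 1.5-fold minimum left 0 in either direction in both lists. With that minimum MYC over shDHX15 left 1 member and 0 other genes lower, and against shControl 2 and 0. Against shControl 2 members were lower with total counts and with genes kept from a mean log2 CPM of 3 (main 5), and other genes lower numbered 3 with DESeq2 and 2 with total counts, upper-quartile scaling and that filter (main 5). FBL against shControl was called higher with total counts (0.10) and was not called, with values just above 0, under upper-quartile scaling (0.0024) and that filter (0.0407). The members' median log2 fold change with knockdown was -0.0222 with total counts, -0.0740 with that filter and -0.0696 with the 2 groups alone. With MYC over shDHX15 it was 1.09 with DESeq2, 1.253 with total counts, 1.23 with upper-quartile scaling, 1.04 with no filter and 1.245 with that filter. Against shControl it was 0.95, 1.18, 1.08, 0.90 and 1.12 in that order, and 0.92 with the 2 groups alone. Leaving out 1 library at a time gave 4 to 7 members higher with knockdown and medians of -0.119 to -0.0822, 1.03 to 1.08 and 0.90 to 0.95. With the replicate block 7 members were higher and 22 lower with knockdown, 41 and 3 with MYC over shDHX15, and 39 and 5 against shControl. The E-box share was 12.8% over the 250 bases before the start and 7.69% from 250 to 51 before. The median level per kilobase in shControl was 11.6 CPM over the longest transcript and 10.1 over all exons.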
